A study of Mus musculus with 24 samples.

Results

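The 45 genes described here encode proteins of DNA replication in mammalian cells, from origin licensing to deoxynucleotide supply. The rule lists them by name and uses no measured value, although the list was drawn up with earlier results of these data known. They comprise 9 genes for origin licensing and its control, 12 for the replicative helicase, 6 for the sliding clamp and its loader, 9 for replicative polymerases and primase, 3 for the single-strand binding protein, 2 for flap removal and ligation, and 4 for deoxynucleotide supply. All 45 were found among the 30342 gene names on the array by an exact match of symbol, and all 45 were among the 15059 genes tested. RNA came from DA1-3B, a mouse leukaemia line of strain C3H eOuJ that carries Bcr-Abl in every group. The line was transfected with an empty plasmid (VOID), with p65/RelA, the transactivating subunit of NF-kB (WT), with the mutant D361E, which the design text calls non-cleavable, with an N-terminal fragment (p1-361), with a C-terminal fragment (p363-549), or with both fragments together (both). Each of the 6 groups had 4 one-colour arrays. The sources used here do not give the promoter of the plasmids, the time after transfection or the share of transfected cells. Whether the 4 samples of a group were separate cultures is not given either. A p-value here therefore reflects only how far samples spread within groups, pooled for each gene over the arrays of all 6 groups. That spread may be technical. The sample names and the treatment protocol start the C-terminal fragment 1 residue apart.

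Replication starts when the origin recognition complex, with Cdc6 and Cdt1, loads the Mcm2 to Mcm7 ring onto DNA in G1 phase, and geminin (Gmnn) blocks Cdt1 afterwards. In S phase, Cdc45 and the GINS proteins turn the ring into an active helicase, primase and polymerase alpha lay down primers, and polymerases delta and epsilon extend them on the Pcna clamp. E2F transcription factors drive many of these genes as cells leave G1, so a set of replication transcripts is commonly read as a marker of the share of cells in cycle, which an array of bulk RNA cannot tell apart from more transcript per cell.

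The promoters of 4 of these genes are shown because the members moved together across arrays and these 4 were among the most variable between groups. They were taken from RefSeq (GRCm38.p6), whose table held 45 entries for 37 of the 45 genes. They are the members with an entry that had the smallest p in the F test over groups among those called with the blocked fit described below. Each runs from 250 bases before to 50 bases after the annotated start. Capitals mark an E2F core, for which the letters TTCCCGC and also TTCGCGC, then the letters TTGCCGC and also TTGGCGC were searched, and the box bound by NF-Y, for which CCAAT was searched, on either strand. The promoter of Rrm2, the small subunit of ribonucleotide reductase, lies on the plus strand at chr12:24708004-24708303. The promoter of Tyms, thymidylate synthase, lies on the minus strand at chr5:30073576-30073875. The promoter of Rpa3, the smallest subunit of replication protein A, lies on the minus strand at chr6:8259092-8259391. The promoter of Pole2, the second subunit of polymerase epsilon, lies on the minus strand at chr12:69228141-69228440.
Rrm2: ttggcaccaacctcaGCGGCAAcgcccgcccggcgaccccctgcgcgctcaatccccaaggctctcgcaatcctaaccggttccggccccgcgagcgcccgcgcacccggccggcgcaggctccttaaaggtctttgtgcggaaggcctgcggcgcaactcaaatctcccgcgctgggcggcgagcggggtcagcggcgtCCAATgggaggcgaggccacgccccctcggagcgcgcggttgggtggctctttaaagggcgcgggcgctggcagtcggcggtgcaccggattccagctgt
Tyms: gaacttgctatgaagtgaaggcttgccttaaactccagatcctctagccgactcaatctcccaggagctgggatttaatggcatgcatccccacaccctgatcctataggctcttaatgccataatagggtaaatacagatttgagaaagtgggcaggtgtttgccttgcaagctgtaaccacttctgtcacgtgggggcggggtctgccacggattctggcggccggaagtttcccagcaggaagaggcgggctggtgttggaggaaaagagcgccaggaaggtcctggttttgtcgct
Rpa3: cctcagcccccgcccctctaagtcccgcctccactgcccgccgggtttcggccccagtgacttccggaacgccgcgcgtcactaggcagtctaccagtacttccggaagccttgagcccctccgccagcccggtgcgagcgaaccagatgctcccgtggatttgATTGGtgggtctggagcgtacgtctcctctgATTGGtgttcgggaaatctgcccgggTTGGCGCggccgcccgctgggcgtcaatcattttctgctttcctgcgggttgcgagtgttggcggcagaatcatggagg
Pole2: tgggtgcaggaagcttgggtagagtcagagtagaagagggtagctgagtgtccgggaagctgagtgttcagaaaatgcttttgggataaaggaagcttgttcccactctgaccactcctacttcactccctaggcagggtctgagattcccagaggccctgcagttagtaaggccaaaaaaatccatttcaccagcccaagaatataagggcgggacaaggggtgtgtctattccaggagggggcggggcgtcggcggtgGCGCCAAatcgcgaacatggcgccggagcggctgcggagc

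In Rrm2, CCAAT began at position -50 relative to the start and an E2F core at -235. Rpa3 held an E2F core at -29 and CCAAT at -55 and -86, Pole2 held an E2F core at 10 bases past the start, and Tyms held neither. At least 1 E2F core was found in 26 of the 45 member entries, or 57.8%, against 15.9% of the entries of all genes tested and 9.57% of all 32851 entries. CCAAT was found in 55.6% of member entries and 37.4% of all entries. TTGGCGC read on the opposite strand can share letters with CCAAT. The kappaB motif, the letters NF-kB binds, was found in 1 member entry (Mcm7), or 2.22%, against 4.51% of all entries. A match here only describes letters in these windows, and some entries are alternative starts of 1 gene.

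The signal was clear of background for every member, though some members were much dimmer than others. All 45 were well above background on all 24 arrays, none had a missing value, and no spot was saturated. The measure is log2 signal minus the 75th percentile of its own array, called the level below; levels were compared between arrays and not between genes. The 75th percentile ran from 635.8 to 1214 over the arrays, and from 846.7 to 1214 in the both-fragment group against 665.7 to 924.1 in VOID, so brighter arrays went with the both-fragment group. The part of array brightness in the results was not tested beyond the scalings in the closing section. By their pattern over 200 other genes, 21 of 24 arrays were closest to their own group, and the 3 exceptions, called the 3 exceptional arrays below, were all replicate 4 of the fragment groups. The array labelled p1-361 was closest to p363-549 (r 0.94, against 0.18 with its own group), the one labelled p363-549 to both (0.97 against -0.50), and the one labelled both to p1-361 (0.90 against -0.11). The arrays thus went against their labels in a ring, and whether they carry the RNA their labels name was not tested. Every replicate 4 and set 4 value of these 3 groups below is that of the array so labelled. Rela itself was higher than in VOID by 0.47 ± 0.10 (log2, limma SE, n = 4 arrays per group) in the both-fragment group, with an adjusted p of 0.00622 from limma. It was higher by 0.49 with p363-549 (adjusted p 0.0161) and by 0.43 with p1-361 (adjusted p 0.0406). With WT p65 it was 0.40 above VOID (adjusted p 0.0795) and with D361E 0.36, and these did not pass.

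Replication genes had their highest group mean in cells given both fragments. The both-fragment mean was the highest of the 6 groups for 37 of the 45 genes, and the WT mean was the lowest for 21. Against VOID, 41 of the 45 were above 0 with both fragments, with a median of 0.40 on the log2 scale, or 1.32-fold, beside a median of -0.01 over all genes. Without the 3 exceptional arrays, 38 were above 0 and the median was 0.32, but VOID then keeps its replicate 4 while the both-fragment group does not. Without replicate 4 of every group, 39 were above 0 and the median was 0.45. Against WT the median was 0.51, against p1-361 0.46 and against p363-549 0.41. These 4 comparisons share the both-fragment arrays. No member passed the test in any of the 12 comparisons or in the F test over groups, in the fit without a term for sets (limma, Benjamini-Hochberg over 15059 genes). In that fit 4.46% of all genes were called in both against VOID, 1.06% in both against WT, and 0% against either single fragment. Of all genes 2.84% were called in the F test, and 0.212% exceeded or fell short of the sum of the single-fragment differences. At an unadjusted p under 0.05, 6 members were higher and 1 was lower in both against VOID, beside 9.3% and 9.27% of all genes (18.6% together). It was 8 members against WT (12.6% of all genes), 8 against p1-361 (19.4%), 8 against p363-549 (18.5%) and 5 for the departure from the sum (14.3%), so the members stood near the background at that threshold. The smallest adjusted p of a member in both against VOID was 0.130, for Rrm2.

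Over all 24 arrays, the single constructs left the median of the 45 genes near VOID. It was -0.09 with WT p65, -0.05 with D361E, -0.04 with p1-361 and -0.01 with p363-549, and 9, 17, 16 and 21 of the 45 genes were above 0. Of all genes limma called 0.485%, 0.657%, 0.717% and 0.584% in these 4 comparisons. At an unadjusted p under 0.05, 0 members were found for WT and D361E (5.67% and 6.3% of all genes), and 1, Orc3, for each single fragment (7.84% with p1-361 and 6.83% with p363-549). Against WT, the median was 0.04 for D361E, 0.03 for p1-361 and 0.06 for p363-549. There 0.0797%, 0.126% and 0.146% of all genes were called, and 0 members had an unadjusted p under 0.05, beside 3.07%, 3.02% and 5.19% of all genes. The intervals are wide: the median standard error of a member in a comparison of 2 groups was 0.30, against 0.22 over all genes, so a change of the size seen with both fragments could be missed for most members. The medians against VOID also moved with the arrays used. Without the 3 exceptional arrays they were -0.21 with p1-361 and -0.19 with p363-549 (6 and 12 genes above 0), but VOID then keeps its replicate 4. The blocked fit described below gave -0.07 and -0.04 without these arrays. Without replicate 4 of every group, the median was -0.16 with D361E and -0.13 with p1-361 (8 and 11 genes above 0).

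The larger part of the variation in these genes followed the order of the samples, not the plasmid. The sample titles number the arrays from 1 to 24, and each run of 6 numbers holds 1 array of every group; these runs are called sets 1 to 4, and the labels call them no batch. The sets held a median of 66.4% of a member's variance and the groups 16.6%, against 35.9% and 23.6% over all genes. These shares are not corrected for the number of levels, and 6 groups take up more than 4 sets where nothing differs. A difference among sets passed limma's F test for 44 of 45 members, beside 58.6% of all genes. The level was lowest in set 3 for 38 members and highest in set 4 for 40. Averaged over the 45 genes, set 3 lay 0.48 below and set 4 0.41 above each gene's own mean, and sets 1 and 2 lay at 0.01 and 0.07. Cdt1, the loader of the Mcm ring, had the largest share between sets of any member and 2.31% between groups. Groups outweighed sets for 5 members only: Orc3, Rrm2, Tyms, Rfc2 and Rpa3.

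**Figure D1:**
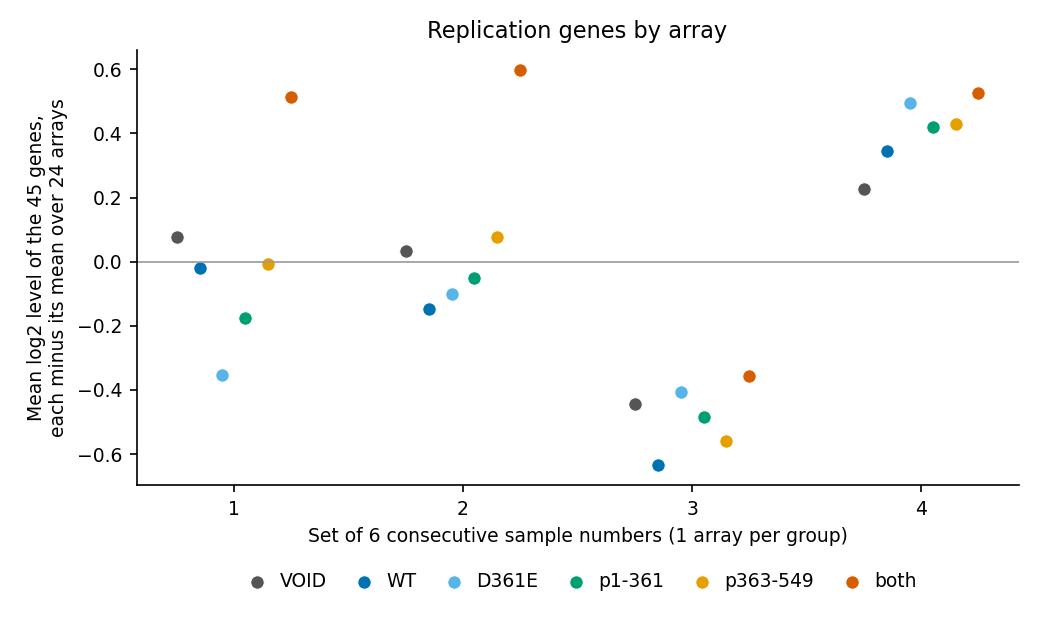
Mean log2 level of the 45 genes on each of the 24 arrays, each gene first centred on its mean over all arrays, by set of sample numbers (x axis) and group (colour). All 6 arrays of set 3 lie below 0 and all 6 of set 4 above it, and the both-fragment array is the highest of its set in all 4 sets.

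**Figure D2:**
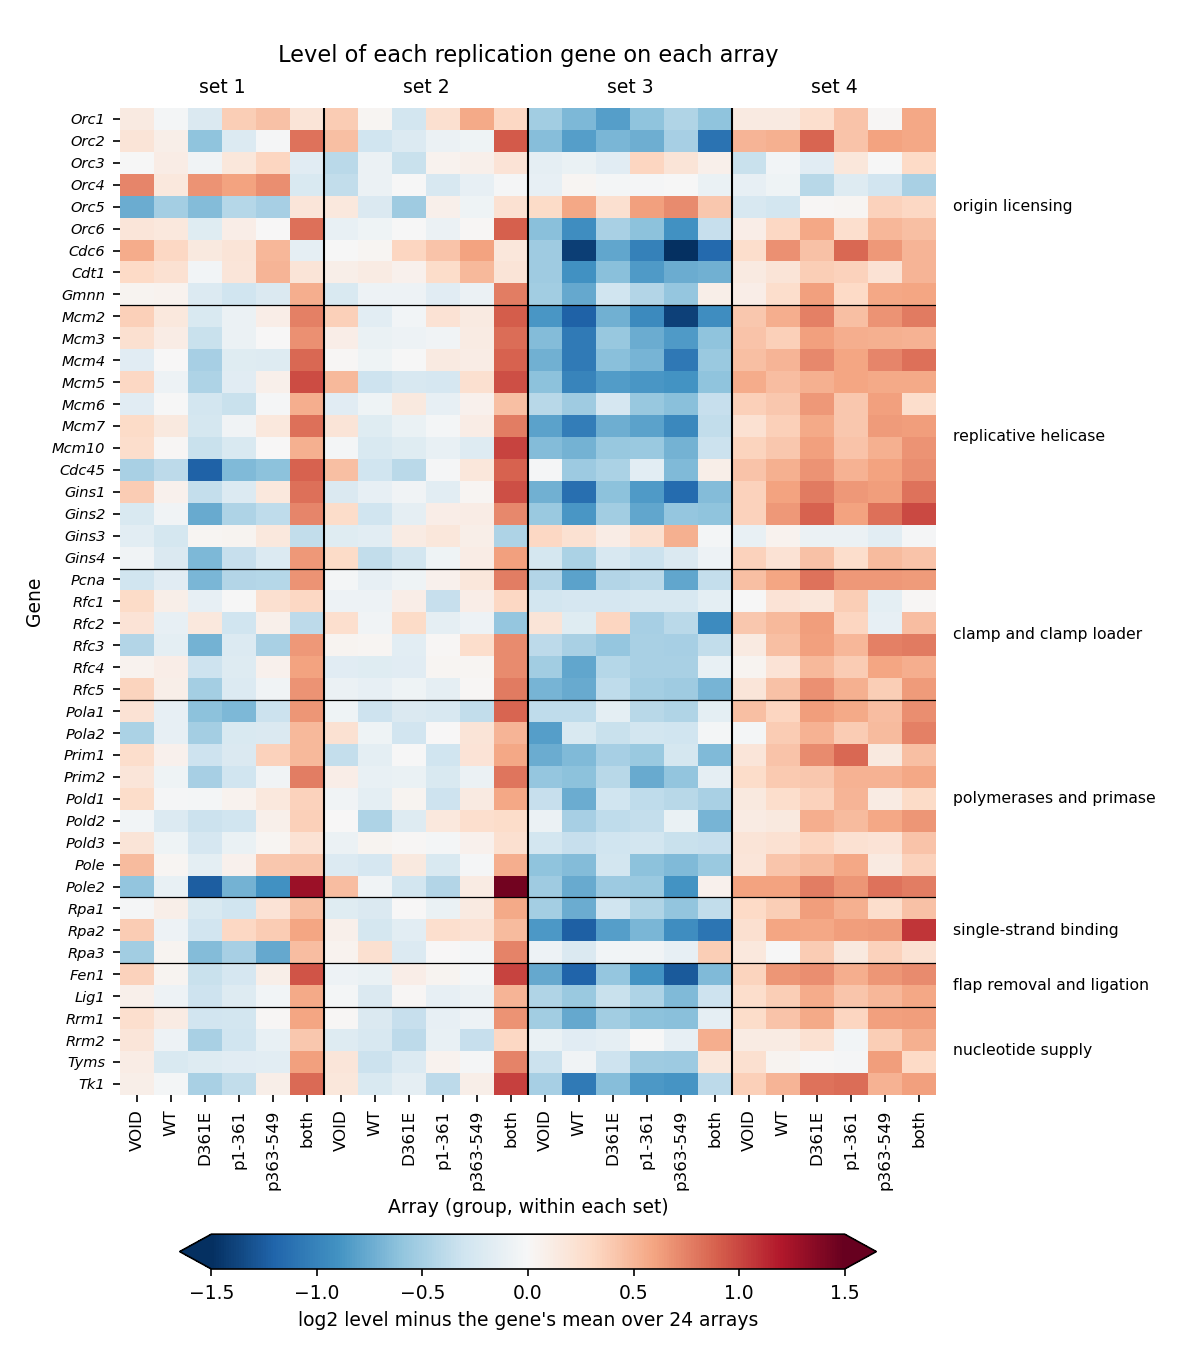
Level of each of the 45 genes (listed by role) on each array (left to right by set and then group), as log2 level minus the gene's mean over 24 arrays; red is above and blue below that mean. Set 3 is low for 38 genes, and the both-fragment arrays average 0.51 and 0.60 in sets 1 and 2.

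Within the sets, the both-fragment arrays stayed above VOID for most members, by amounts that differed. In set 1, 38 of the 45 genes were above VOID with a median of 0.47, in set 2 42 with 0.61, in set 3 33 with 0.10, and in set 4 43 with 0.30. The medians over all genes lay between -0.04 and 0.04 in the same sets. In all 4 sets 29 members were higher with both fragments and 0 were lower, beside 17.5% of all genes higher and 16.9% lower. The other constructs had no such steady sign. D361E was above VOID for 2 of 45 genes in set 1 and for 42 in set 4, and WT for 14 in set 1 and 37 in set 4. The VOID array of set 4 was the lowest of that set on average. The arrays lay on 6 slides of 4, in another order, and only 2 slides held both a VOID and a both-fragment array. On one, both replicate 1 exceeded VOID replicate 2 for 41 of 45 genes (median 0.56), and on the other, both replicate 3 exceeded VOID replicate 4 for 7 (median -0.63); each pair crosses sets. With slide as a fixed block, the median was 0.38 and no member passed.

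**Figure D3:**
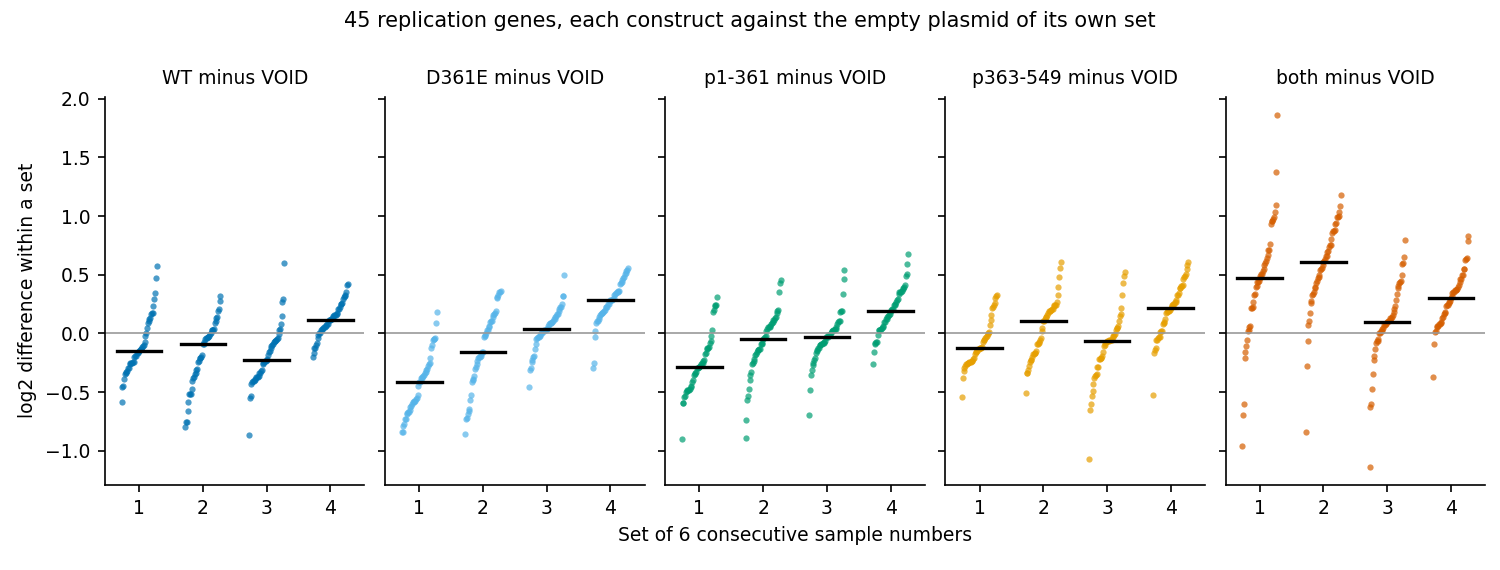
Log2 difference of each construct from the VOID array of the same set, for the 45 genes (points, sorted within each set) with their median (bar). Only the panel of both fragments has a median above 0 in all 4 sets, from 0.10 to 0.61, and the 4 other constructs lie highest in set 4.

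An alternative fit, called the blocked fit below, added the set as a fixed block. It leaves every group difference as it was and lowers the members' median standard error from 0.30 to 0.16. In it 14 members were called higher and 1 lower with both fragments than in VOID, beside 8.88% and 7.24% of all genes. Without the block the adjusted p of these 15 lay between 0.130 and 0.501 (limma), and a member named as called below was called in the blocked fit unless another fit is given. Against WT 19 members were called higher (3.81% of all genes), against p1-361 23 (8.02%), and against p363-549 15 (5.52%), with 1, Gins3, called lower (8.45%). The other 7 comparisons of 2 groups gave 0 member calls. In them 1.48% (WT), 1.79% (D361E), 3% (p1-361) and 1.81% (p363-549) of all genes were called against VOID, and 0.226% (D361E), 0.139% (p1-361) and 0.286% (p363-549) against WT. The F test over groups gave 10 members, beside 11.1% of all genes. The count against VOID moved with the sets used, as did that over all genes. It was 4 without set 1 (Gmnn, Orc3, Rfc4 and Rrm2), 1 without set 2 (Pola2), 3 without set 3 (Mcm4, Pola2 and Rfc3) and 19 without set 4, where 2.77%, 1.51%, 3.39% and 26.6% of all genes were called. No member was called in all 4 of these fits, and the median difference was 0.35, 0.32, 0.45 and 0.45. Without the 3 exceptional arrays 25 were called higher and 1 lower, where 17.8% and 16.1% of all genes were.

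**Figure D4:**
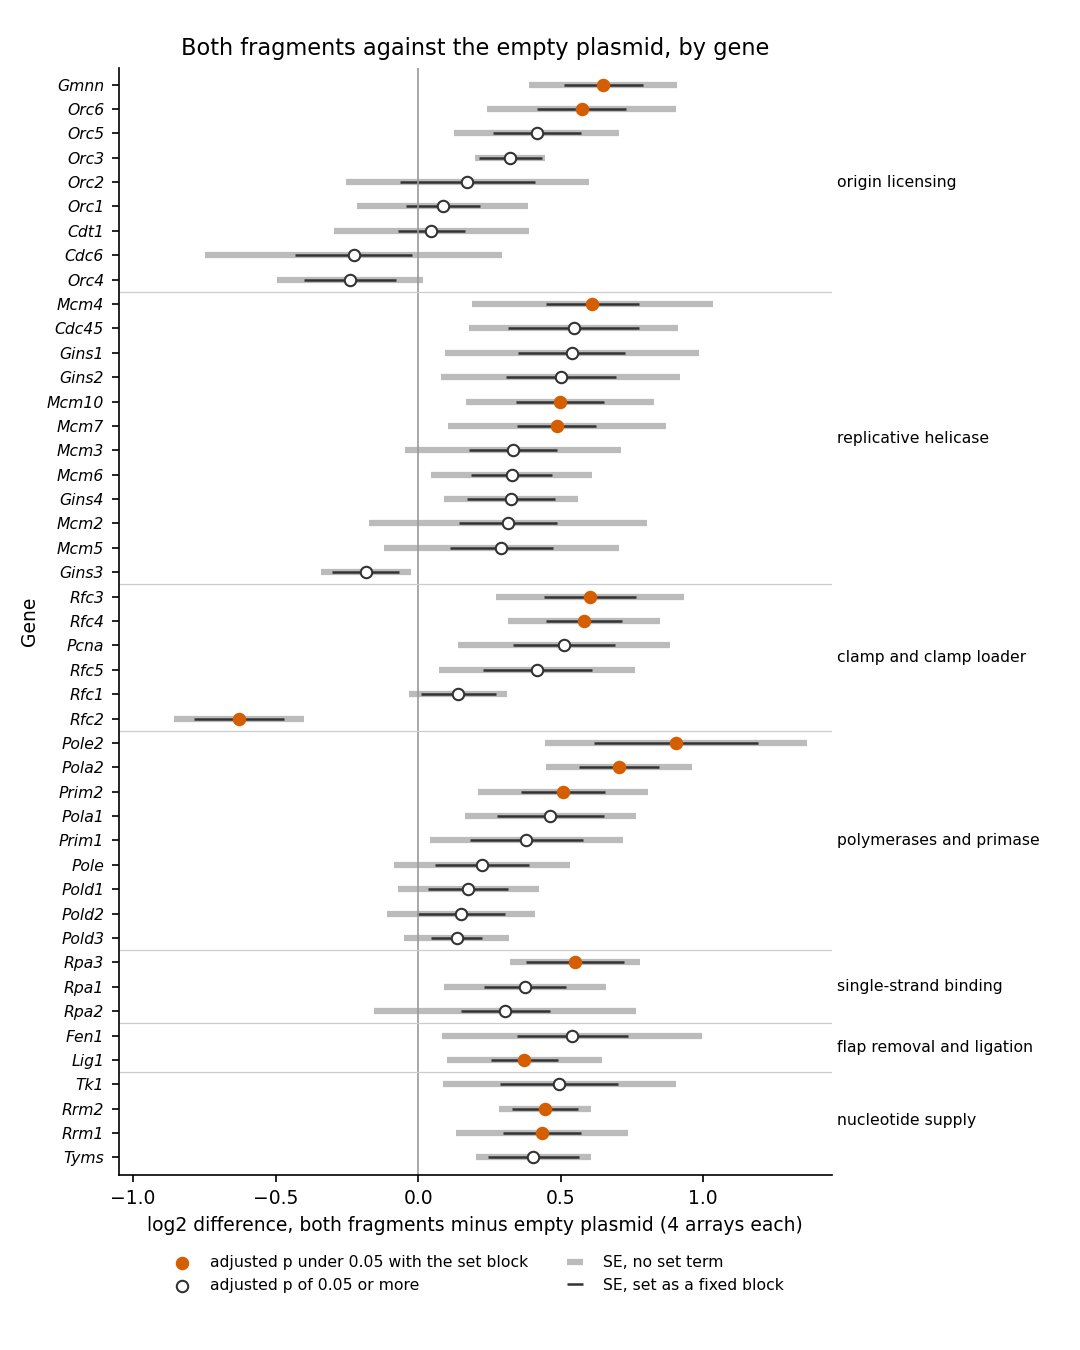
Log2 difference between both fragments and VOID for each of the 45 genes, grouped by role, with the standard error without (grey) and with (black) the set as a fixed block; filled points have an adjusted p under 0.05 in the blocked fit and none has one without the block. Filled points number 14 to the right of 0 and 1, Rfc2, to the left.

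Among the 4 nucleotide supply genes, Rrm2 separated the groups most clearly. Ribonucleotide reductase makes deoxynucleotides, and its small subunit Rrm2 accumulates in S phase. The level of Rrm2 was 4.18, 3.81, 3.90 and 4.12 in the 4 VOID arrays (sets 1 to 4) and 4.41, 4.31, 4.55 and 4.53 in the both-fragment arrays. All 4 both-fragment arrays lay above all 4 of VOID, of WT (3.76 to 4.13) and of p1-361 (3.70 to 4.00), as 5.56%, 4.18% and 3.9% of all genes did. Of the 45 members, 2, 2 and 3 did so in these comparisons, near those shares for VOID and WT. The D361E arrays ran from 3.52 to 4.23, and both against D361E was not among the 12 comparisons. The both-fragment arrays did not separate from p363-549, where 3 arrays lay between 3.66 and 3.89 and the exceptional replicate 4 reached 4.37. The difference from VOID was 0.45 ± 0.12 in the blocked fit (limma SE, adjusted p 0.0168) and had an adjusted p of 0.130 without the block. Rrm2 was also 1 of 3 members, with Prim2 and Pola1, whose level with both fragments exceeded the sum of the single-fragment differences in the blocked fit, by 0.62 ± 0.16 (adjusted p 0.0420, limma), as for 2.22% of all genes. Rrm1, the large subunit, was higher than VOID by 0.43 ± 0.14 and passed in the blocked fit.

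Tyms, which makes the thymidine nucleotide, had VOID levels of -2.51, -2.43, -2.95 and -2.38 and both-fragment levels of -2.002, -1.87, -2.46 and -2.33. The groups overlapped, and both fragments were higher within each set. Tyms passed in the blocked fit against WT (0.60 ± 0.16, adjusted p 0.0350, limma) and against p1-361 (0.62 ± 0.16, adjusted p 0.0341) but not against VOID (0.40 ± 0.16, adjusted p 0.0855). All 4 both-fragment arrays lay above the 4 WT arrays, which ran from -2.95 to -2.58, as for 4.18% of all genes and 2 of the 45 members. Tk1, the thymidine salvage kinase, was 0.50 higher than VOID and did not pass (adjusted p 0.102).

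**Figure D5:**
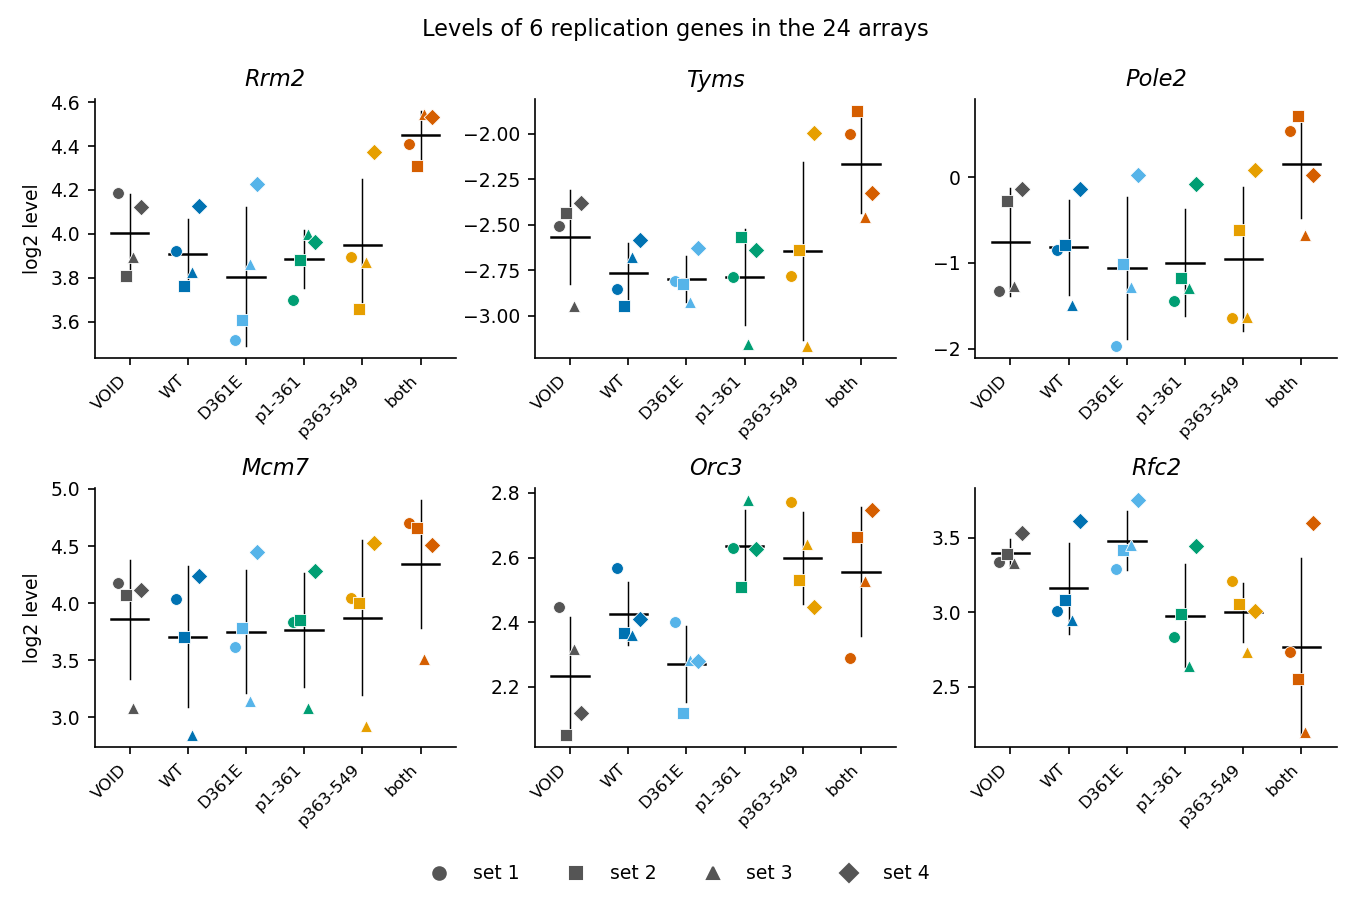
Log2 level of Rrm2, Tyms, Pole2, Mcm7, Orc3 and Rfc2 on each array, by group, with the set as the marker, the group mean (horizontal bar) and 1 SD (vertical line); each panel has its own axis. Rrm2 separates both fragments (4.31 to 4.55) from VOID (3.81 to 4.18), and Mcm7 falls to its lowest level of each group in set 3.

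Of the 9 polymerase and primase genes, 3 were called higher with both fragments than in VOID: Pole2, Pola2 and Prim2. Pole2 had the largest difference of any member. Its level was -1.32, -0.28, -1.27 and -0.14 in VOID and 0.54, 0.71, -0.68 and 0.03 with both fragments. The lowest both-fragment array, of set 3, lay below 2 VOID arrays, and within each set both fragments were higher. The difference was 0.90 ± 0.29, or 1.87-fold (adjusted p 0.0401, limma with the block, and 0.294 without it), and it was 1.15 against p1-361 and 1.10 against p363-549. Pola2, the accessory subunit of polymerase alpha, had levels of -1.67, -0.96, -2.02 and -1.23 in VOID and -0.71, -0.69, -1.22 and -0.44 with both fragments, a difference of 0.70 ± 0.14 (adjusted p 0.00371, limma with the block, and 0.133 without it). Its both-fragment levels were above VOID in each set but overlapped VOID through set 3. Prim2, the large primase subunit, was higher by 0.51 ± 0.15 (adjusted p 0.0285). A second, dimmer probe of Prim2 differed by -0.21 and correlated with the first at an r of 0.05 over the 24 arrays, so this call rests on 1 of its 2 probes. The polymerase delta subunits Pold1, Pold2 and Pold3 lay 0.18, 0.15 and 0.13 above VOID and did not pass.

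Of the 12 helicase genes, Mcm4, Mcm7 and Mcm10 were called higher than VOID, and 8 of the 12 higher than WT. Mcm7, a subunit of the ring, showed the sets plainly. Its levels were 4.17, 4.07, 3.08 and 4.11 in VOID and 4.70, 4.65, 3.52 and 4.51 with both fragments, and the set 3 array was the lowest in each of the 6 groups. The difference was 0.49 ± 0.14 with the block (adjusted p 0.0252, limma) and 0.49 ± 0.38 without it (adjusted p 0.501). Mcm4, another ring subunit, had levels of 3.56, 3.74, 3.01 and 4.18 in VOID and 4.59, 4.62, 3.17 and 4.56 with both fragments, a difference of 0.61 ± 0.16 with the block. Within sets Mcm4 was higher by 1.03, 0.88, 0.16 and 0.38. Cdc45, which travels with the ring, had levels of -2.24, -1.30, -1.77 and -1.33 in VOID and -0.87, -0.87, -1.66 and -1.06 with both fragments. It passed against WT (0.81 ± 0.23, adjusted p 0.0418, limma with the block) and both single fragments, and not against VOID (0.55, adjusted p 0.105). Among the GINS subunits, Gins4 levels were 1.33, 1.68, 1.12 and 1.73 in VOID and 2.04, 2.00, 1.31 and 1.81 with both fragments, a difference of 0.33 that did not pass. Gins3 differed from VOID by -0.18, and from p363-549 by -0.37 ± 0.12 with an adjusted p of 0.0435 in the blocked fit.

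The clamp and its loader held members called in either direction. The Rfc proteins open the ring-shaped Pcna clamp and close it around DNA. Pcna levels were 4.76, 5.03, 4.63 and 5.52 in VOID and 5.74, 5.84, 4.71 and 5.70 with both fragments. Pcna was higher by 0.51 ± 0.18, with an adjusted p of 0.0584 in the blocked fit (limma), and was called in none of the comparisons of these 24 arrays. Rfc4 was higher by 0.58 ± 0.13 and Rfc3 by 0.60 ± 0.16, both called with the block, and a second probe of Rfc4 differed by 0.35. Rfc2, another loader subunit, went the other way. Its levels were 3.34, 3.39, 3.33 and 3.53 in VOID and 2.73, 2.55, 2.19 and 3.60 with both fragments. Both fragments were lower than VOID in sets 1 to 3 and slightly higher in set 4, whose both-fragment array is 1 of the 3 exceptional ones. The difference was -0.63 ± 0.16 with the block (adjusted p 0.0147, limma) and had an adjusted p of 0.136 without it. With the block, the adjusted p was 0.102, 0.153 and 0.137 without sets 1, 2 and 3. Without both replicate 4 and without a block it was -0.90 (adjusted p 0.00548), so that array decided the call of Rfc2 in the unblocked fit. Rfc2 was also low on most arrays of the single fragments and of WT. Its 4 p363-549 arrays, from 2.73 to 3.21, lay below all 4 of VOID, as 1.65% of all genes and 1 of the 45 members did. Replicates 1 to 3 of p1-361 (2.63 to 2.99) and of WT (2.94 to 3.08) lay below VOID too. Their replicate 4, at 3.45 and 3.61, did not.

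In the origin licensing group the values were mixed. Gmnn and Orc6 were called higher than VOID, and the median of the 9 genes was 0.17. Gmnn levels were 0.36, 0.10, -0.20 and 0.42 in VOID and 0.87, 1.09, 0.40 and 0.91 with both fragments, a difference of 0.65 ± 0.14 (adjusted p 0.00601, limma with the block, and 0.181 without it). The set 3 array of both fragments lay below the highest VOID array and the other 3 above it. Orc6, another subunit of the origin recognition complex, was higher by 0.57 ± 0.16. Cdt1 and Cdc6, the loading factors, differed from VOID by 0.05 ± 0.12 and -0.23 ± 0.20 in the blocked fit and did not pass, with 95% intervals of -0.20 to 0.29 and -0.66 to 0.20. The sign for Cdt1 turned under other scalings, to -0.06 with normexp background correction. The second probe of Cdc6 differed by 0.27, opposite in sign to the first. Orc4 differed from VOID by -0.24 and Orc1 by 0.09, and neither passed.

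Orc3, a core subunit of the origin recognition complex, had a pattern of its own. It had the smallest share of variance between sets of any member, 7.36%, and the largest between groups, 60.4%. Its levels were 2.45, 2.05, 2.32 and 2.12 in VOID, 2.63, 2.51, 2.78 and 2.63 with p1-361, 2.77, 2.53, 2.64 and 2.45 with p363-549, and 2.29, 2.66, 2.53 and 2.75 with both fragments. All 4 p1-361 arrays lay above VOID, as 2.46% of all genes and 1 of the 45 members did, and p363-549 and both overlapped it. WT ran from 2.36 to 2.57 and D361E from 2.12 to 2.40. The difference of p1-361 from VOID was 0.40 ± 0.12 (adjusted p 0.184, limma; 0.0581 with the block), so Orc3 passed in neither fit. A second, dimmer probe of Orc3 was 0.36 higher with both fragments and correlated with the first at an r of 0.15.

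Of the 3 subunits of the single-strand binding protein, Rpa3 was called. Rpa3 levels were 2.83, 3.42, 3.29 and 3.52 in VOID and 3.83, 4.11, 3.72 and 3.59 with both fragments. The groups did not overlap, as for 5.56% of all genes and 2 of the 45 members, though the margin in set 4 was small. The difference was 0.55 ± 0.17 (adjusted p 0.0391, limma with the block, and 0.196 without it). Rpa1 and Rpa2 lay 0.37 and 0.31 above VOID and did not pass. Of the genes that finish lagging-strand fragments, the ligase Lig1 was higher by 0.37 ± 0.12 (adjusted p 0.0411, limma with the block) and the flap nuclease Fen1 was 0.54 ± 0.19 higher without passing (adjusted p 0.0647).

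Other genes of replication, nucleotide supply and the cell cycle were counted in both against VOID, where 4.46% of all genes were called without the block, and 8.88% higher and 7.24% lower with it. Of 49 further replication factors tested, 2 rose and 0 fell in the unblocked fit, and 13 were called higher and 1 lower in the blocked one, with a median difference of 0.25 beside -0.01 over all genes. The 2 were Msh6, a mismatch recognition subunit (0.69 ± 0.14, adjusted p 0.00622, limma), and Rnaseh2c, a subunit of the enzyme that removes RNA from DNA (0.61 ± 0.16, adjusted p 0.0323). Of 27 further genes of nucleotide supply, 0 passed in the unblocked fit (limma; 2 had an unadjusted p under 0.05), 5 were called higher with the block, and the median was 0.18. Of 41 regulators of G1 and S phase, 0 rose and 1 fell, 9 were called higher and 3 lower with the block, and the median was 0.12. The 1 was Cdkn2a, the locus of the p16 and p19 cell cycle inhibitors, which fell by 3.29 ± 0.44 (log2, adjusted p 0.000142, limma). Genes of G2 phase and mitosis, 29 tested, were all above VOID, with a median of 0.41. Of these, Foxm1 (0.64 ± 0.15, adjusted p 0.0120), a transcription factor of G2 genes, and Ndc80 (0.74 ± 0.17, adjusted p 0.0129), a kinetochore protein, rose, and 18 were called higher with the block. The sets held a median of 60.2%, 57.1%, 46.5% and 38.2% of the variance in these 4 lists in the order given, against 66.4% in the members. The mean deviations of the mitosis genes in sets 3 and 4 were -0.09 and 0.19.

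Markers of cell identity differed from VOID in the both-fragment group, and some also in other groups. The summed linear level of 12 mast cell and basophil markers ran from 49.7 to 74.8 in VOID and from 28.8 to 38.4 with both fragments, and 4 of the 8 tested fell while 0 rose in the unblocked fit, in which 4.46% of all genes were called in either direction and to which the marker counts below also refer. In the other groups the sum ran from 46.4 to 62.2 (WT), 35.6 to 61.0 (D361E), 33.6 to 58.4 (p1-361) and 33.1 to 49.9 (p363-549). Ms4a2 and Mrgprb2 of that list were never above background. Of 16 erythroid and megakaryocyte markers tested, 3 rose and 8 fell, and their sum ran from 250.01 to 484 in VOID and from 176 to 312 with both fragments. It ran from 132 to 194 with WT, and Alas2 was never above background. Of 9 blood cell identity genes tested 1 rose and 2 fell, with sums of 195 to 249 in VOID and 131 to 166 with both fragments, and Kit was not above background on any array. The sums of that list were 195 to 231 (WT), 196 to 233 (D361E), 174 to 199 (p1-361) and 122 to 201 (p363-549). Of 13 monocyte and macrophage markers 4 rose and 1 fell, with sums of 13.1 to 19.5 and 7.26 to 14.0. None of 10 epithelial and fibroblast genes was above background on all arrays of a group. Their part in the replication gene results was not tested.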

How the data were processed

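RNA from 24 samples was hybridised in one colour to Agilent arrays. The authors deposited processed intensity (linear, background already subtracted), from Agilent Feature Extraction 10.7.3.1, per the file headers. The level was log2 intensity minus the array's 75th percentile over 43020 non-control spots. Spots marked as uneven were left out. A probe was kept where 1 group or more had it well above background in each of its 4 arrays (19524 probes), and the brightest probe stood for each of 15059 genes. limma 3.58.1 (R 4.3.3) fitted 1 mean per group to all 24 arrays, with 2-sided p-values, Benjamini-Hochberg adjustment over genes within each of 12 comparisons and a threshold of 0.05; errors are limma SEs unless named. Precision is limited by having 4 arrays a group. The fits were run on simulated data with changes larger than those of the members and, for the set block, shifts between sets drawn separately for each gene. Such data cannot show how often changes of the members' size are missed or called.

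Deviations from group means correlated within sets at a median r of 0.41 over all genes (lowest -0.34, 60 pairs) and 0.69 over the members, against -0.12 and -0.23 between sets. The deviations of a group sum to 0 over its 4 arrays, 1 per set, which by itself pushes the values between sets below 0. Not every pair deviated together, and the labels pair no arrays, so the set block is an alternative. Members and gene lists were chosen with earlier results of these data known, and histone genes were left out. Values per array were meant for members called without the block; as none was, they are given for the 10 with the smallest F test p, and for Mcm4, Mcm7 and Pcna, chosen after their values were seen. From the other lists, at most 4 genes called in both against VOID are named, and 1 marker list is not reported here. Alternatives covered background correction, scaling, filters, probes, slides, sets, array weights and arrays left out.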

Additional observations from a re-analysis of the deposited data

Results flagged for a closer look

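Of 78 groups of 4 arrays checked (13 genes in 6 groups), 4 held an array far from the other 3 by Dixon's criterion on the ratio of the gap to the range. The criterion flags 1 in 20 by chance for independent groups. These genes share arrays, so the count was not set against that rate. All 4 were replicate 3, which is set 3, the lowest set for 38 members. They lay in genes that were added by name after their values were seen, so no pattern is read from them. Mcm4 stood at 3.17 with both fragments, against 4.56 to 4.62 in the other 3 arrays. Mcm7 stood at 3.52 with both fragments, against 4.51 to 4.70, and at 3.08 in VOID, against 4.07 to 4.17. Pcna stood at 4.71 with both fragments, against 5.70 to 5.84.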

How the results depend on the processing

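Over 48 alternatives, the median member difference of both against VOID stayed above 0 (0.24 to 0.65), with 38 to 42 of 45 genes above 0. Calls depended on the setting: the test as reported gave 0 in every comparison, and 11 of the 48 gave calls in both against VOID. Counts below are in the order both against VOID, WT, p1-361 and p363-549, then departure from the sum of single fragments in either direction, then the F test, with the lowest and highest share of all genes called over the 6 in brackets. The set block gave 15, 19, 23, 16, 3 and 10 (5.51% to 16.1%). With the percentile over detected probes as well it gave 14, 19, 21, 17, 3 and 9 (6.55% to 15.9%). Array weights, estimated gene by gene because the default did not converge, gave 24, 39, 36, 30, 26 and 32 (35.5% to 56.7%). They also gave 1 each in WT against VOID, p1-361 against VOID and p363-549 against WT. There 1494, 673 and 1086 of all 15059 genes were called. Leaving out the 3 exceptional arrays gave 1, 2, 2, 5, 3 and 1 without the block (5.54% to 15.2%), and 26, 30, 29, 27, 22 and 28 with it (31.6% to 41.1%). With the block it also gave 2 in p1-361 against VOID, where 1331 of all genes were called. Leaving out set 4 gave 1, 3, 6, 8, 3 and 2 without the block (6.24% to 17%), and 19, 30, 29, 27, 24 and 26 with it (25.6% to 40.3%). With the block it also gave 1 each in D361E and p1-361 against VOID, where 612 and 1224 of all genes were called. With the block and without set 1, 2 or 3, the count in both against VOID was 4, 1 and 3 (417, 228 and 511 of all genes), and 0 in the other comparisons. Combined fits and fits without a set were chosen after seeing the data. Leaving out 1 array gave 0 to 1 in both against VOID, both against p1-361 and the F test, and 0 to 3 in both against p363-549. The array behind each such call was replicate 4 of p363-549 or of both. Without both replicate 4, 1057 of all 15059 genes were called in both against VOID and 794 in the F test. Without p363-549 replicate 4, it was 405 in both against p1-361, 1658 in both against p363-549 and 801 in the F test.

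Signs turned only for members near 0 in both against VOID, and the causes were not tested. Cdc6 was 0.020 with the mean of its probes, and -0.45 to 0.11 with 1 array left out. Cdt1 was -0.057 with normexp, -0.023 with quantile normalization, -0.0072 with the detected percentile (with or without the block), -0.11 without the 3 arrays, -0.016 when the block was added to that, -0.063 without set 4 (with or without the block), and -0.13 to 0.30 with 1 array left out. Orc1 was -0.067 without the 3 arrays, -0.032 without set 4 (with or without the block) and -0.097 to 0.33 with 1 array left out. Orc2 was -0.084 to 0.64 with 1 array left out. Pold2 was -0.022 without the 3 arrays, and -0.022 to 0.43 with 1 array left out.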
